A study of Homo sapiens with 6 samples.

Results

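The genes described here are the master regulator CIITA, the invariant chain CD74 and 8 chains of MHC class II, 10 genes in all, chosen by symbol from the 65746 genes of the count table. The chains are HLA-DRA, HLA-DRB1, HLA-DPA1, HLA-DPB1, HLA-DQA1, HLA-DQB1, HLA-DMA and HLA-DMB. All 10 passed the filter on low counts and were among the 11550 genes tested. RNA had been sequenced from SU-DHL-8, an established line of human diffuse large B-cell lymphoma labelled as wild type (WT). Of the 6 libraries, 3 came from cells given erianin, a bibenzyl natural product known to bind tubulin, at 100 nM over 24 h, and 3 from cells given DMSO alone. Both groups are 1 cell line in RPMI 1640 with serum, and whether the 3 libraries of a group came from separate cultures is not given in the sources used here.

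MHC class II molecules are pairs of an alpha and a beta chain that display peptides from the endosomal pathway to CD4+ T cells. In B cells they are made all the time. CIITA binds no DNA itself and switches on class II genes by docking onto RFX, CREB and NF-Y factors, which sit together on conserved promoter elements called the X and Y boxes. CD74 escorts new class II pairs to the endosome and blocks their groove, and HLA-DM then helps to exchange the remaining CD74 fragment for antigen peptides. Loss of class II from lymphoma cells is a known route of escape from T cells.

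Of the 10 genes, 8 had a promoter entry in RefSeq (GRCh38.p14, 250 bases before to 50 after the start). For CD74, HLA-DRB1, HLA-DQA1 and HLA-DMA the stretch with the letters of both boxes is shown. For HLA-DPA1 it is the stretch with those of the X box alone, from the entry that held them. The boxes are where CIITA acts. CD74, alpha chains and a beta chain, whose values differ below, can be compared in these stretches. Each is written 5′ to 3′ on the strand of its gene. Capitals mark CNAGNNAC, a reduced form of the X box written after reading these promoters, and ATTGG, the core of the Y box, which appears as CCAAT where it lies on the other strand.
CD74: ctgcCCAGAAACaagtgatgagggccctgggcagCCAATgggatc
HLA-DRB1: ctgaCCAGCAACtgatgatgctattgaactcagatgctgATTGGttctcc
HLA-DQA1: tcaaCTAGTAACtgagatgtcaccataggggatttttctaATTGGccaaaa
HLA-DMA: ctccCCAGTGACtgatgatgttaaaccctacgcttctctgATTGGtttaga
HLA-DPA1: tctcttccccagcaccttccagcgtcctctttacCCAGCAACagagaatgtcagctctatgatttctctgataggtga
These lie at chr5:150412953-150412997, chr6:32589884-32589933, chr6:32637298-32637348, chr6:32953166-32953216 and chr6:33073707-33073784, on the plus strand for HLA-DQA1 and the minus strand for the others.

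CNAGNNAC was followed within 10 to 40 bases by the ATTGG core on either strand in 5 of the 8 genes with an entry, the 4 shown with both and HLA-DQB1. The spacing between the matches was 22 bases in CD74, 27 in HLA-DRB1 and HLA-DQB1, and 28 in HLA-DQA1 and HLA-DMA. The HLA-DPA1 entry shown held only the first set of letters, and its other entry, at chr6:33080699-33080998, held neither. HLA-DPB1 held only the second set. HLA-DMB held 1 match to each, but not in that arrangement. The same pair was found in 0.974% of 35114 promoter windows of this length, while CNAGNNAC alone was found on either strand in 39.3% and ATTGG alone in 34.6%. Of the other class II genes listed below, 6 had an entry and 2 held the pair. CNAGNNAC was written after reading these promoters, so the shares here and in all windows cannot test whether the pair is enriched. Such matches describe letters and are no evidence of binding.

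Across the whole table, 1 library differed from the rest, DMSO replicate 1. Total counts were 30956443 in it and 32844464 to 35588728 in the others, and a count of 3 equals 0.0819 to 0.0985 CPM (counts over library size, adjusted by TMM as for all CPM here). Its counts differed from those of DMSO replicates 2 and 3 with a chi-square of 224.44 and 241.34 per degree of freedom. For the other pairs within a group it was 4.48 to 14.36. Its deposited TPM values (a level scaled by gene length) summed to 39.2% of the total that TPM has by definition, against 63.6% to 66.7% in the other libraries. The values of the 10 genes are therefore given with and without it. All 8 B-cell marker genes were found at 1 CPM or more in every library, and their sum was 2765 to 3795 CPM with DMSO and 2327 to 2606 CPM with erianin. Within that list CD79B, PAX5, BLK and MS4A1 were lower in every erianin library than in any DMSO library, and CD79A and CD22 were higher. The 6 T-cell markers summed to 4.07 to 5.70 CPM over all libraries, nearly all from TRAC and CD247, with CD3G and CD2 at 0. CLEC9A and FCER1A of the dendritic-cell list had no count.

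CIITA fell to 49.4% of its DMSO level. It stood at 467, 488 and 486 CPM in DMSO replicates 1, 2 and 3 and at 229.8, 232 and 251 CPM in erianin replicates 1, 2 and 3. All 3 erianin libraries lay below all 3 DMSO libraries by more than the spread within either group, and DMSO replicate 1 did not stand apart for this gene. The log2 fold change was -1.02 ± 0.09 (standard error, SE; adjusted p = 0.0013 by edgeR) and was -1.02 ± 0.06 without DMSO replicate 1 (adjusted p = 4.2e-13). Among all genes, CIITA ranked 337 to 361 by count in the DMSO libraries and 706 to 761 in the erianin libraries. The gene (ENSG00000179583) spans 10866222 to 10943021 on chromosome 16, plus strand. It shares 2416 of its 20757 exonic bases with DEXI on the opposite strand, a gene at 24.5 CPM with DMSO and 27.4 CPM with erianin. The authors' table gives 1 count per gene, so the separate promoters known for CIITA cannot be told apart, and in bulk RNA neither can fewer cells with a transcript and less transcript per cell. The call was kept in 15 of 17 alternative settings and ended on the log2(TPM + 1) and log2(TPM + 0.1) scales (adjusted p = 0.065 and 0.068).

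**Figure D1:**
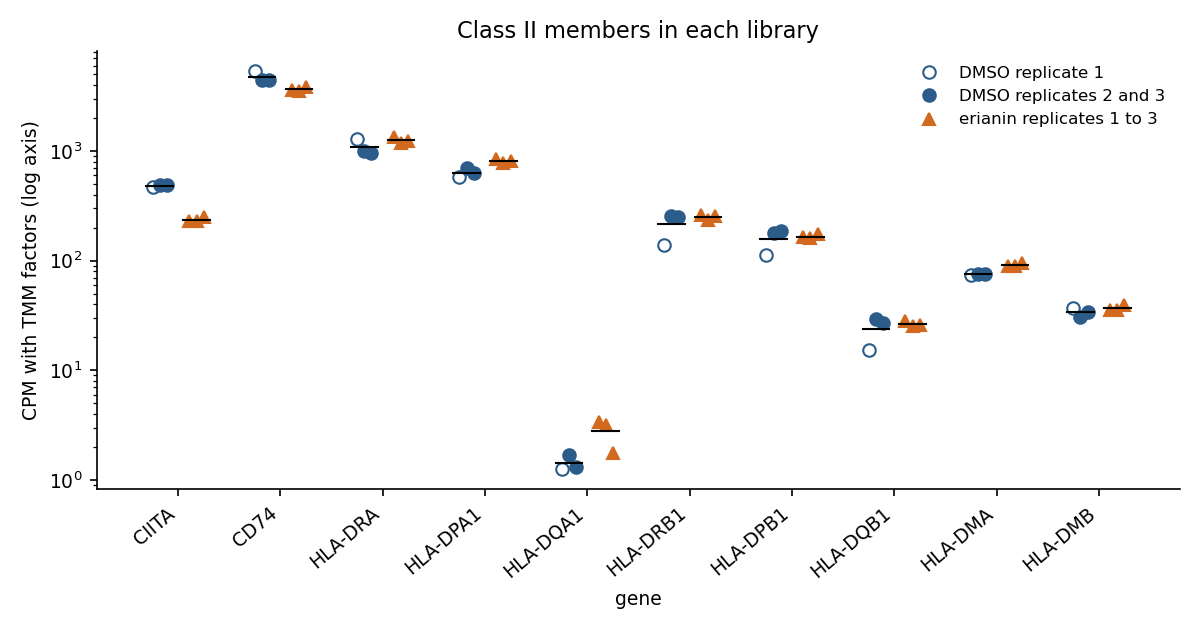
Level of each of the 10 genes in each library, in CPM with TMM factors on a log axis, with circles for DMSO (open for replicate 1), triangles for erianin and black lines for the group means. CIITA shows the widest gap between the groups, and the open circle lies well below the other DMSO libraries for HLA-DRB1, HLA-DPB1 and HLA-DQB1.

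CD74 was the most abundant of the 10 genes by count, with 61.8% to 66.5% of their summed counts in the DMSO libraries and 54.6% to 56.9% in the erianin libraries. It stood at 5406, 4437 and 4435 CPM in DMSO replicates 1, 2 and 3 and at 3599.7, 3538 and 3833 CPM in erianin replicates 1, 2 and 3. The groups did not overlap, and DMSO replicate 1 was the highest library. With all 6 libraries the change was not called (log2 fold change -0.38 ± 0.12, adjusted p = 0.060). Without DMSO replicate 1 CD74 fell, by 0.27 ± 0.06 on the log2 scale (adjusted p = 0.00069). In TPM the order of the libraries differed, since DMSO replicate 1 was then the lowest with 1621, beside 2049 and 2045 in the other DMSO libraries and 1725, 1735 and 1840 in the erianin libraries. DESeq2 also called it lower, and the other 15 alternatives did not.

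Of the 4 alpha chains, HLA-DPA1 and HLA-DQA1 rose, and HLA-DRA and HLA-DMA were not called with all 6 libraries. HLA-DPA1 stood at 583, 693 and 634 CPM in DMSO replicates 1, 2 and 3 and at 849, 776 and 814 CPM in erianin replicates 1, 2 and 3. Every erianin library was above every DMSO library, and HLA-DPA1 rose (0.35 ± 0.11, adjusted p = 0.049). HLA-DQA1 was near the bottom of the tested range, with 38, 55 and 45 counts in DMSO replicates 1, 2 and 3 and 124, 109 and 62 counts in erianin replicates 1, 2 and 3. Its groups did not overlap either, although erianin replicate 3 came close to DMSO replicate 2, and it rose (0.96 ± 0.29, adjusted p = 0.049). Without DMSO replicate 1 HLA-DPA1 was at 0.31 ± 0.06 (adjusted p = 0.00019) and HLA-DQA1 at 0.89 ± 0.26 (adjusted p = 0.0060). Both calls with all 6 libraries were near the threshold. That of HLA-DPA1 was kept in 6 of 17 alternatives (adjusted p = 0.00019 to 0.18 over them) and that of HLA-DQA1 in 9 of 17 (adjusted p = 0.0060 to 0.17). Leaving out any 1 library other than DMSO replicate 1 ended the call of HLA-DPA1, and leaving out DMSO replicate 2 or 3 or erianin replicate 1 or 2 ended that of HLA-DQA1.

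HLA-DRA, the least variable chain between people, stood at 1295, 991 and 967 CPM in DMSO replicates 1, 2 and 3 and at 1337, 1179.7 and 1241 CPM in erianin replicates 1, 2 and 3. DMSO replicate 1 lay among the erianin libraries, while the other DMSO libraries lay below all of them. HLA-DRA was not called with all 6 libraries (0.21 ± 0.14, adjusted p = 0.32) and rose without DMSO replicate 1 (0.37 ± 0.06, adjusted p = 2.4e-05). HLA-DMA, the alpha chain of the peptide exchange factor, stood at 74.0, 75.6 and 75.3 CPM in DMSO replicates 1, 2 and 3 and at 89.6, 89.0 and 94.4 CPM in erianin replicates 1, 2 and 3. Here DMSO replicate 1 matched its group and the groups did not overlap. HLA-DMA missed the threshold of edgeR with all 6 libraries (0.28 ± 0.09, adjusted p = 0.063) and rose without DMSO replicate 1 (0.28 ± 0.07, adjusted p = 0.00088). It was called higher in 6 of 17 alternatives, as many as HLA-DPA1, among them DESeq2 with all 6 libraries (adjusted p = 0.012). The summed levels of 2 marker lists of other cells that carry class II were also higher with erianin, though not every gene of them. The summed level of 6 monocyte or macrophage genes was 4.50 to 7.27 CPM with DMSO and 9.44 to 10.6 CPM with erianin, most of it from LYZ, and CD14 had 0, 2 and 9 counts in DMSO replicates 1, 2 and 3 and 57, 54 and 56 counts in erianin replicates 1, 2 and 3. CD68 of the same list went the other way near the floor. It had 6, 0 and 3 counts in DMSO replicates 1, 2 and 3 and 2, 1 and 0 counts in erianin replicates 1, 2 and 3. The summed level of 5 dendritic-cell genes was 0.131 to 0.441 CPM with DMSO and 0.764 to 1.01 CPM with erianin, nearly all from CD1C. The part of such cells in the higher class II and processing genes was not tested.

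None of the 4 beta chains was called by edgeR, beside 24.2% of all genes tested called in either direction. HLA-DRB1 stood at 139.9, 257 and 249 CPM in DMSO replicates 1, 2 and 3 and at 263, 235 and 256 CPM in erianin replicates 1, 2 and 3. DMSO replicate 1 alone was low, and the other 5 libraries lay together. HLA-DQB1 had the same layout, with 15.3, 29.3 and 27.2 CPM in DMSO replicates 1, 2 and 3 and 28, 25.3 and 25.7 CPM in erianin replicates 1, 2 and 3. HLA-DPB1 had 112, 178 and 188 CPM in the DMSO and 163, 160.1 and 174 CPM in the erianin libraries, so that DMSO replicate 1 was the lowest library and the other DMSO libraries lay just above all erianin libraries. HLA-DMB had 37.1, 30.7 and 34.2 CPM with DMSO and 35.4, 35.4 and 39.3 CPM with erianin, with groups that overlapped. The log2 fold changes ran from 0.06 ± 0.19 (HLA-DPB1, adjusted p = 0.85) to 0.22 ± 0.22 (HLA-DRB1, adjusted p = 0.50), and an interval of 1.96 SE on each side reached from -0.32 to 0.44 for HLA-DPB1 and from -0.21 to 0.66 for HLA-DRB1. Without DMSO replicate 1 the SEs were smaller: the changes were 0.01 ± 0.06 for HLA-DRB1, -0.13 ± 0.06 for HLA-DPB1, -0.09 ± 0.09 for HLA-DQB1 and 0.19 ± 0.08 for HLA-DMB (adjusted p = 0.057 to 0.95). With all 6 libraries DESeq2 and limma-voom also called 0 of these 4 genes. Over the 11550 genes tested DESeq2 called 1746 higher and 1897 lower, and limma-voom 1401 and 1361. At an unadjusted p under 0.05 edgeR had 0 of the 4, and the share of all genes there is not given here.

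**Figure D2:**
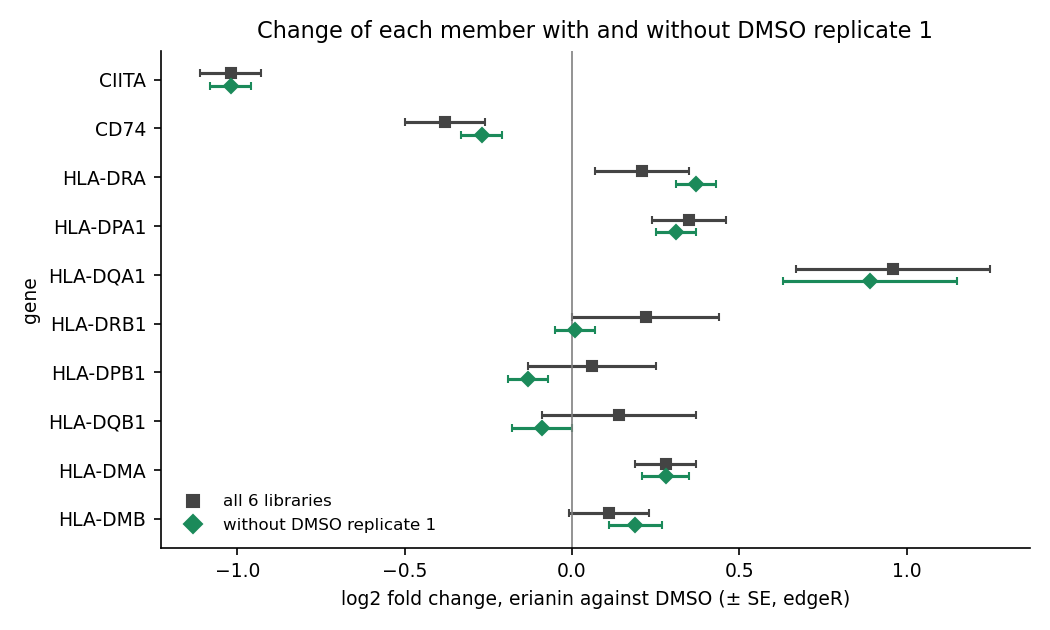
Log2 fold change of each gene with erianin against DMSO and its SE from edgeR, with squares for all 6 libraries and diamonds without DMSO replicate 1. CIITA is at -1.02 in both fits, HLA-DRA moves from 0.21 to 0.37, and HLA-DPB1 and HLA-DQB1 change sign.

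Of the 10 genes, 2 rose, 1 fell and 7 were not called by edgeR, beside 11.8% of all genes tested called higher and 12.3% called lower (24.2% in either direction). Without DMSO replicate 1, 4 rose, 2 fell and 4 were not called, beside 27.8% of all genes called higher and 27.4% called lower (55.3% in either direction). The 4 that rose then were the 4 alpha chains, and the beta chain HLA-DMB came near the threshold (0.19 ± 0.08, adjusted p = 0.057). HLA-DOA and HLA-DOB, an alpha and a beta chain gene outside the 10, had the opposite layout then. HLA-DOA was at -0.05 ± 0.06 (adjusted p = 0.51) and HLA-DOB at 0.95 ± 0.23 (adjusted p = 0.0011). Over all 6 libraries the erianin values lay above all DMSO values for 3 of the 10 and below for 2, against 23.6% and 23.2% of all genes tested. These shares are near those of all genes, and the median log2 fold change of the 10 was 0.17, against -0.003 over all genes tested, and 0.10 against 0.029 without DMSO replicate 1. The share of higher calls among all called genes was 49.0%, and it was 61.7% with upper-quartile scaling, 66.7% with total counts alone and 84.3% and 83.8% on the log2(TPM + 1) and log2(TPM + 0.1) scales.

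The ratio of 2 genes within a library does not depend on how libraries are scaled. The log2 ratio of HLA-DRA to HLA-DRB1 was 3.21, 1.95 and 1.96 in DMSO replicates 1, 2 and 3 and 2.34, 2.33 and 2.27 in erianin replicates 1, 2 and 3. That of HLA-DPA1 to HLA-DPB1 was 2.38, 1.96 and 1.76 in the DMSO and 2.38, 2.28 and 2.22 in the erianin libraries. That of HLA-DQA1 to HLA-DQB1 was -3.62, -4.11 and -4.36 in the DMSO and -3.05, -3.01 and -3.86 in the erianin libraries. For all 3 classical pairs the erianin libraries lay above DMSO replicates 2 and 3. DMSO replicate 1 lay above every erianin library for the first pair and lay level with the highest of them or within their range for the other pairs. The differences between group means were -0.06, 0.26 and 0.72 with all 6 libraries (two-sided exact permutation p = 1.0, 0.3 and 0.2) and 0.36, 0.44 and 0.93 without DMSO replicate 1 (exact permutation p = 0.2 for each, the smallest that 3 against 2 libraries allow). The ratio of HLA-DMA to HLA-DMB was 1.14 ± 0.15 with DMSO and 1.31 ± 0.04 with erianin (SD, n = 3, exact permutation p = 0.2), a difference of 0.17 that was 0.09 without DMSO replicate 1.

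Relative to the classical chains, CD74 was lower in every erianin library than in any DMSO library. The log2 ratio of CD74 to the summed 6 classical class II genes was 1.33, 1.05 and 1.10 in DMSO replicates 1, 2 and 3 and 0.45, 0.57 and 0.61 in erianin replicates 1, 2 and 3. The groups did not overlap with or without DMSO replicate 1, and the mean difference was -0.62 (exact permutation p = 0.1, the smallest that 3 against 3 libraries allow; p = 0.467 adjusted over the 7 ratios computed, of which 6 are reported) and -0.53 without DMSO replicate 1. The ratio of HLA-DMA plus HLA-DMB to the classical sum was -4.28 ± 0.05 with DMSO and -4.30 ± 0.09 with erianin (SD, n = 3, exact permutation p = 0.9).

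**Figure D3:**
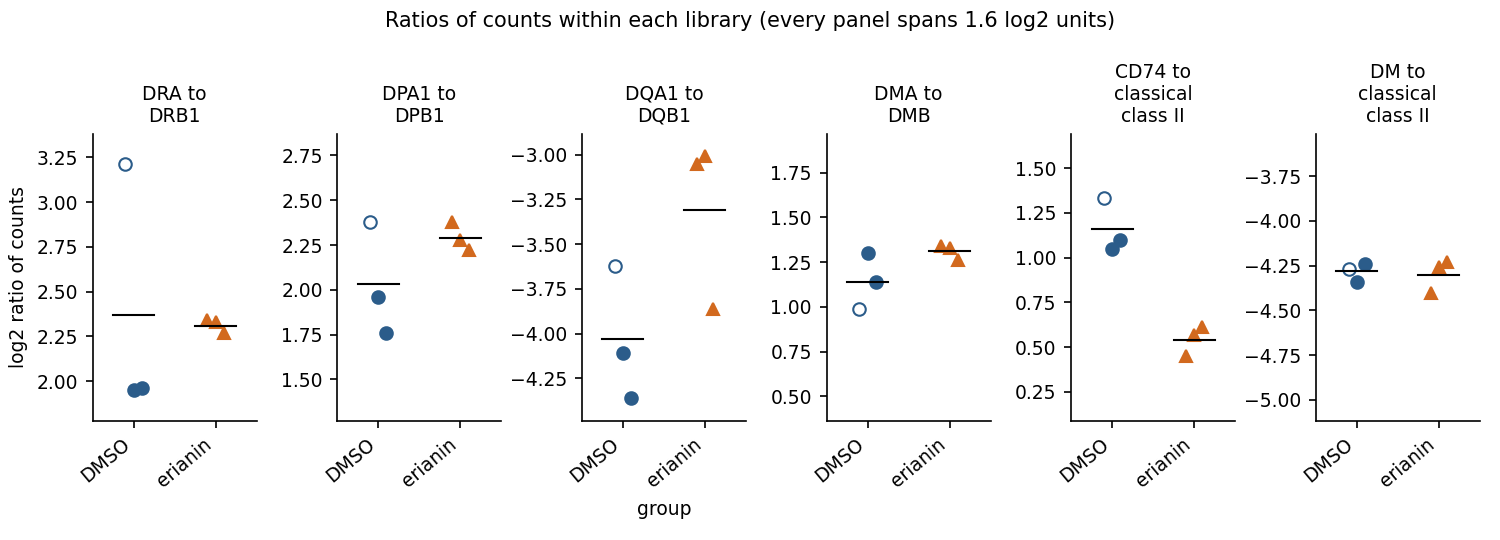
Log2 ratio of counts within each library for 6 ratios, with circles for DMSO (open for replicate 1), triangles for erianin and black lines for group means; each panel spans the same range of log2 units. CD74 against the classical chains separates the groups (0.45 to 0.61 with erianin, 1.05 to 1.33 with DMSO), while in the 3 classical pairs the open circle lies apart from the other DMSO libraries.

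Set in order by TPM, which allows levels to be compared between genes within a library, HLA-DRA and CD74 came first, followed by HLA-DRB1, HLA-DPA1 and HLA-DPB1. With DMSO, the median TPM was 2045 for CD74, 1979 for HLA-DRA, 1014 for HLA-DRB1, 305 for HLA-DPA1, 124 for HLA-DPB1, 52.2 for CIITA, 44.0 for HLA-DMA, 13.9 for HLA-DMB, 9.79 for HLA-DQB1 and 0.524 for HLA-DQA1. CD74 was above HLA-DRA in 2 of the 3 DMSO libraries, so their order was not settled there, and each other gene was above the next in 3 of 3. With erianin, HLA-DRA was above CD74 in 3 of 3 libraries (median TPM 2643 and 1735) and HLA-DMA above CIITA in 3 of 3 (55.4 and 26.5), and the rest of the order was that of DMSO. The order depended on the gene lengths: per kilobase of GENCODE 29 exons, CD74 was above HLA-DRA in all 6 libraries and HLA-DMA above CIITA in all 6. For HLA-DRB1 the length behind the TPM was 0.41 of the GENCODE length, relative to the median gene, and for CD74 and HLA-DMA it was 1.4. HLA-DQA1 was thus far below HLA-DQB1 on either scale. HLA genes differ between people and resemble each other, so reads of HLA-DRB1, HLA-DQA1 and their paralogs may be lost or shared, and these levels are uncertain.

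Other class II genes showed no edgeR calls with all 6 libraries. HLA-DOA, which with HLA-DOB forms the inhibitor of HLA-DM in B cells, stood at 291, 329 and 339.7 CPM in DMSO replicates 1, 2 and 3 and at 322, 313 and 327 CPM in erianin replicates 1, 2 and 3, with overlapping groups. HLA-DOB was low, with 1.78 ± 0.518 CPM with DMSO and 2.90 ± 0.264 CPM with erianin (SD, n = 3; 0.71 ± 0.24, adjusted p = 0.072), and rose without DMSO replicate 1 (0.95, adjusted p = 0.0011). HLA-DRB5, a second DR beta gene carried by some haplotypes, had 31 ± 10.1 and 36.1 ± 2.19 CPM, and HLA-DQB2 had 10.8 ± 2.03 and 11.2 ± 1.37 CPM. The pseudogene HLA-DRB6 had 7.03 ± 3.58 and 8.62 ± 0.773 CPM. HLA-DQA2 and the pseudogene HLA-DPB2 were under 1 CPM in every library and rose without DMSO replicate 1 (adjusted p = 0.031 and 0.0068), and HLA-DRB9 and HLA-DPA2 had too few counts to test. Of these 12 genes 7 were tested and 0 were called by edgeR, beside 11.8% of all genes called higher and 12.3% called lower. DESeq2 and limma-voom each called 1 higher, beside 1746 and 1401 of the 11550 genes tested. At an unadjusted p under 0.05 edgeR had 3 higher, and the share of all genes there is not given here. HLA-DRB3, HLA-DRB4 and HLA-DQB1-AS1 were listed at 0, which is not read as absence of expression.

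Of the 8 genes of the factors that dock CIITA at class II promoters, 2 fell and none rose, beside 12.3% of all genes called lower and 11.8% called higher. NFYC, a subunit of the Y-box factor NF-Y, stood at 168, 116 and 117 CPM in DMSO replicates 1, 2 and 3 and at 71.3, 71.2 and 76.9 CPM in erianin replicates 1, 2 and 3. All erianin libraries were below all DMSO libraries, with DMSO replicate 1 the highest (-0.86 ± 0.16, adjusted p = 0.011; -0.65 without DMSO replicate 1; not called without erianin replicate 1 or 2, adjusted p = 0.065 and 0.067). RFXAP, a subunit of the X-box factor RFX, fell from 22.9 ± 1.69 to 17.1 ± 1.26 CPM (SD, n = 3; -0.42 ± 0.12, adjusted p = 0.039), a call kept in 6 of 17 alternatives and lost when any library but DMSO replicate 1 was left out (adjusted p = 0.096 to 0.18). The other RFX subunits had 223 ± 24.1 and 211 ± 7.55 CPM (RFX5) and 65.7 ± 9.31 and 55.2 ± 3.70 CPM (RFXANK) and were not called. With DMSO replicate 1 left out, 5 of the 8 fell and none rose, beside 27.4% and 27.8% of all genes. With all 6 libraries DESeq2 called 0 higher and 3 lower, beside 1746 higher and 1897 lower of the 11550 genes tested. At an unadjusted p under 0.05 edgeR had 0 higher and 3 lower, and the share of all genes there is not given here.

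Among 22 coactivators of CIITA and factors known to act on it, 20 were tested, 6 fell and none rose, beside the same 12.3% and 11.8% of all genes. PAX5, the B-lineage factor, fell from 836 ± 84.8 to 419 ± 12.9 CPM (SD, n = 3; -1.0 ± 0.11, adjusted p = 0.0023), with 777 to 933 CPM in the DMSO and 405 to 430.04 CPM in the erianin libraries, and its call was kept in all 17 alternatives. FOXP1, a forkhead factor of B cells, fell from 146 ± 69.7 to 55.0 ± 1.6 CPM. DMSO replicate 1 had 226 CPM of FOXP1, beside 107 and 105 CPM in replicates 2 and 3, and the fitted log2 fold change moved from -1.41 (adjusted p = 0.016) to -0.93 when it was left out. IRF2 (-0.88 ± 0.20, adjusted p = 0.022) and IRF1 (-0.43 ± 0.11, adjusted p = 0.027), interferon regulatory factors that bind CIITA promoter IV, fell, and without DMSO replicate 1 IRF2 was at -0.58 and IRF1 at -0.48. The histone methyltransferase genes KMT2D (-0.66 ± 0.15, adjusted p = 0.019) and EZH2 (-0.65 ± 0.19, adjusted p = 0.045) fell as well, the first an activator and the second a repressor. Without DMSO replicate 1, which had 664 CPM of EZH2 beside 423 and 418 CPM in replicates 2 and 3, EZH2 was at -0.38 and KMT2D at -0.48. The calls of IRF2, FOXP1, KMT2D and EZH2 were lost without any 1 erianin library (adjusted p = 0.064 to 0.16), and that of IRF1 did not survive the loss of any library but DMSO replicate 1 (adjusted p = 0.067 to 0.14). IRF8, a factor of B and myeloid cells, had 0 counts in all DMSO libraries and 1, 8 and 4 counts in erianin replicates 1, 2 and 3. These were too few to test and are read neither as absence of expression nor as a rise. With DMSO replicate 1 left out, 3 of the 20 rose and 9 fell, beside 27.8% and 27.4% of all genes. With all libraries DESeq2 called 0 higher and 6 lower, beside 1746 higher and 1897 lower of the 11550 genes tested. At an unadjusted p under 0.05 edgeR had 0 higher and 9 lower, and the share of all genes there is not given here.

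Of 12 genes of endosomal antigen processing 8 were tested, 3 rose and 1 fell, beside 11.8% and 12.3% of all genes. When DMSO replicate 1 was left out, 3 rose and 2 fell, beside 27.8% and 27.4%. CTSC, a protease that activates other proteases, rose from 49.7 ± 3.41 to 86.6 ± 3.85 CPM (SD, n = 3; 0.80 ± 0.10, adjusted p = 0.0033) and kept its call in all 17 alternatives. CTSS, the cathepsin that trims CD74 in B cells, stood at 22.6, 30.9 and 32.3 CPM in DMSO replicates 1, 2 and 3 and at 45.5, 41.4 and 38.1 CPM in erianin replicates 1, 2 and 3. Its groups did not overlap (0.54 ± 0.16, adjusted p = 0.044), and the call was kept in 8 of 17 alternatives, in none of those that left out a library other than DMSO replicate 1 (adjusted p = 0.053 to 0.16). IFI30, a reductase that opens disulfide bonds of antigens, had 2, 5 and 0 counts in DMSO replicates 1, 2 and 3 and 16, 14 and 19 counts in erianin replicates 1, 2 and 3, so its rise (adjusted p = 0.028) is at the limit of the depth and was lost without any 1 erianin library (adjusted p = 0.088 to 0.10). CTSB fell from 61.3 ± 3.63 to 45.2 ± 0.582 CPM (-0.44 ± 0.10, adjusted p = 0.019), and its call was kept in 10 of 17 alternatives, again in none of those that left out a library other than DMSO replicate 1 (adjusted p = 0.062 to 0.11).

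Of 8 names for control of class II at the surface 3 genes were tested, CD83, CD9 and TMEM106A. EdgeR called 0 of them, beside 11.8% of all genes called higher and 12.3% called lower. DESeq2 called 1 lower, beside 1897 of the 11550 genes tested. At an unadjusted p under 0.05 edgeR had 1 lower, and the share of all genes there is not given here. MARCHF1 and MARCHF8, ligases that send class II to degradation, were listed at 0, which is not read as absence of expression. Of 17 genes of MHC class I and its peptide loading, 2 rose and 2 fell with all 6 libraries, beside 11.8% and 12.3% of all genes. When DMSO replicate 1 was left out, 2 rose and 10 fell, beside 27.8% and 27.4%. The chaperones CALR (0.90 ± 0.10, adjusted p = 0.0022) and PDIA3 (0.74 ± 0.21, adjusted p = 0.040) rose, and the peptidase gene ERAP1 (-0.71 ± 0.18, adjusted p = 0.029) and the loading factor gene TAPBP (-0.42 ± 0.12, adjusted p = 0.045) fell. The calls of PDIA3 and TAPBP were lost without any 1 library other than DMSO replicate 1, and that of ERAP1 without any 1 erianin library. The median log2 fold change was -0.34 for the list of CIITA coactivators and regulators, -0.33 for the promoter factors, 0.29 for the other class II genes, 0.22 for antigen processing, -0.28 for surface control and -0.16 for class I, beside -0.003 over all genes tested. When DMSO replicate 1 was left out, these medians were -0.15, -0.20, 0.0, 0.12, -0.20 and -0.30, beside 0.029.

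**Figure D4:**
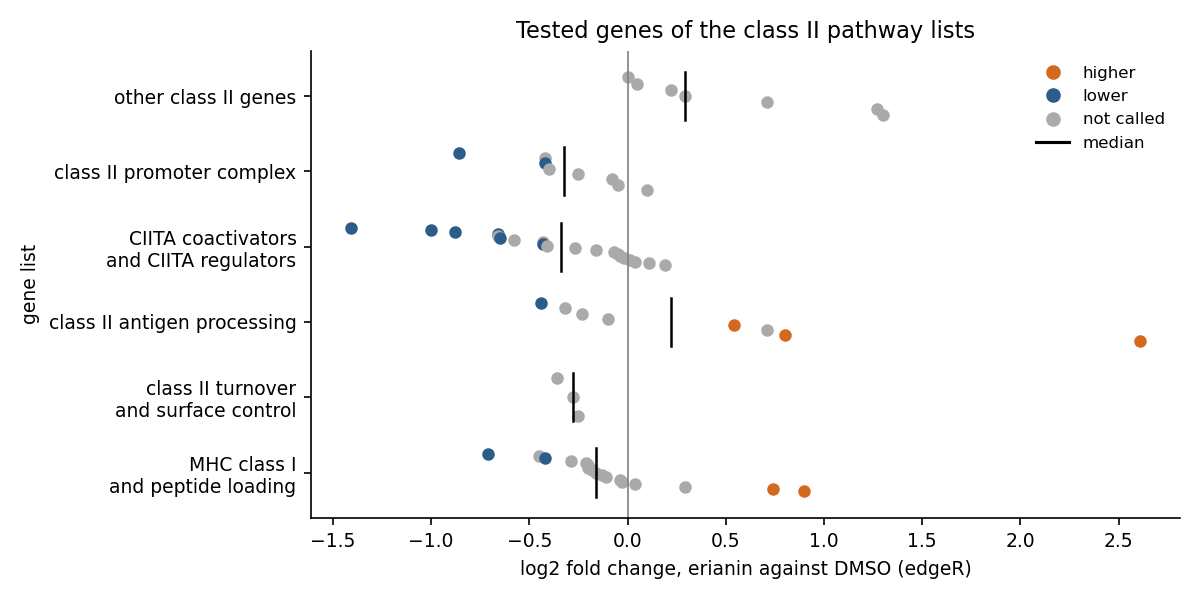
Log2 fold change with erianin against DMSO for each tested gene of 6 gene lists (points, coloured by edgeR call), with a black line at the median of each list. The lists of promoter factors and of CIITA coactivators and regulators hold 2 and 6 lower genes and 0 higher. Antigen processing holds 3 higher and 1 lower. Over all genes tested, 11.8% were called higher and 12.3% lower.

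The genes whose log2 CPM followed CIITA most closely over the 6 libraries, among 7879 tested genes with a mean of at least 10 CPM, were GPR108, RBM23 and PCIF1 (Pearson's r = 0.9993, 0.9991 and 0.9991). For CD74 they were MAP4K1, CLPTM1 and CYB5R3 (r = 0.9989, 0.9986 and 0.9984). All 6 fell, with log2 fold changes of -0.72, -0.92 and -1.19 and of -0.52, -0.47 and -0.63. Because they were picked for following CIITA or CD74 in these libraries, their direction was set by that choice. These correlations rest on 6 libraries in 2 groups that share the treatment difference and the deviation of DMSO replicate 1, and they are a description only.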

How the data were processed

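Whole-number counts per gene and TPM were deposited by the authors. Per the submitters' processing notes, the tools were StringTie 2.2.1, featureCounts 2.0.1, STAR 2.7.10 and fastp 0.23.2, with GRCh38 (hg38). Not given in the sources used here were the annotation release and how strand and multi-mapping reads were handled, so overlapping or similar genes can share reads. Repeats of a symbol (61 rows) were left out. Coordinates and exon lengths came from GENCODE 29 (GRCh38) by Ensembl identifier, and promoters from RefSeq.

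The main test was edgeR 4.0.16 (R 4.3.3; quasi-likelihood, TMM scaling, filterByExpr, treatment as the single term), with Benjamini-Hochberg adjusted p-values over all genes tested, called at 0.05. SE was taken from the log2 fold change and its F value. Ratios were tested by exact permutation (scipy 1.17.1); 1 ratio is not reported here. Alternatives used DESeq2 1.42.0, limma 3.58.1, other scalings, filters and TPM scales, a replicate block, each library left out and, added after seeing the data, GC content and length offsets (mgcv 1.9.3). The fit was tested on simulated counts in which 200 of 11550 genes changed. It recovered 5% of the 1.5-fold and 52% of the 2-fold changes, and 6.56% of its 61 calls were false. A gene not called may thus still have changed. With no label that names separate cultures, p-values reflect only how these libraries vary, which may be technical.

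The members and gene lists were chosen with earlier results of these data known. Named were all members, up to 6 called genes per list, other class II genes, and the 3 genes most correlated with CIITA and CD74. Tables and plots were made with matplotlib 3.10.9, numpy 2.4.6 and pandas 2.3.3 in Python 3.11.15.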

Additional observations from a re-analysis of the deposited data

How the results depend on the processing

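CIITA was lower in all 17 alternatives and called in 15, with log2 fold changes from -1.06 to -0.72. Of the 11550 genes tested, 1368 were higher (11.8%) and 1423 lower (12.3%). The lower count was 918 with total counts alone, 262 with log2(TPM + 1) and 245 with log2(TPM + 0.1), settings that moved the median of all genes to 0.106, 0.202 and 0.277. Leaving out 1 library gave 407 to 3278 higher and 338 to 3227 lower genes. Of the 10 class II members, 2 were higher and 1 lower, beside the same 11.8% and 12.3% of all genes. The higher count was 1 with DESeq2 size factors, without a filter and with limma-voom, 0 on both TPM scales and 0 with the replicate block, and 0 to 4 with 1 library left out. The lower count was 2 with DESeq2, 0 on both TPM scales and 1 to 2 with 1 library left out. The pathway lists, with 7, 8, 20, 8, 3 and 17 genes tested, together held 5 higher and 11 lower genes. Over all genes 11.8% were higher and 12.3% lower. The lower count was 7 with upper-quartile scaling, 6 with total counts and 4 on both TPM scales. With 1 library left out it was 1 to 27, and the higher count was then 2 to 11. The highest values, 27 and 11, came without DMSO replicate 1, beside 27.4% of all genes called lower and 27.8% higher. The difference between groups in the log2 ratio of HLA-DRA to HLA-DRB1 was -0.06 and turned to 0.36 without DMSO replicate 1 (range -0.27 to 0.36 over libraries left out). The difference in the log2 ratio of HLA-DM to the classical chains was -0.02 and turned to 0.017 with TPM, 0.007 without DMSO replicate 3 and 0.037 without erianin replicate 1 (range -0.047 to 0.037). Without DMSO replicate 1 the log2 fold change turned negative for 5 of the class II genes named, at the low end of these ranges over libraries left out: -0.127 to 0.19 for HLA-DPB1, -0.087 to 0.305 for HLA-DQB1, -0.062 to 0.582 for HLA-DRB6, -0.082 to 0.147 for HLA-DQB2 and -0.048 to 0.044 for HLA-DOA. It was -0.051 for HLA-DQB2 and -0.012 for HLA-DOA without erianin replicate 3, and -0.002 for HLA-DOA with DESeq2 size factors and with DESeq2. The cause was not tested. Deviations of libraries with the same replicate number had correlations of 0.346, -0.439 and 0.446 for numbers 1, 2 and 3, not positive for every number, so the numbers were not taken as pairs. The replicate block gave 1139 higher and 1157 lower genes. Offsets for GC content and length, chosen after seeing the data, gave 2023 and 1996.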
